A study of Saccharomyces cerevisiae BY4741 with 4 samples.

Results

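The genes of lower glycolysis encode the enzymes that carry fructose bisphosphate to pyruvate, and all 10 were chosen by systematic name from the deposited table of H3K4me3 levels, which gives a level in both strains for 5038 genes. They are FBA1 (YKL060C), TPI1 (YDR050C), TDH1 (YJL052W), TDH2 (YJR009C), TDH3 (YGR192C), PGK1 (YCR012W), GPM1 (YKL152C), ENO1 (YGR254W), ENO2 (YHR174W) and CDC19 (YAL038W). Every name matched a RefSeq gene with that symbol, and all 10 had a level in both strains. None of their level pairs was identical to that of another gene, and none overlaps another annotated gene.

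Histone H3 trimethylated on lysine 4 (H3K4me3) was assayed by chromatin immunoprecipitation with sequencing (ChIP-seq) in log-phase budding yeast, Saccharomyces cerevisiae, grown to an optical density of 0.6 in YPD, a rich glucose medium. Its glucose is recorded as 10 g per litre for both strains. Wild type was BY4741, a MATa laboratory strain with his3Δ1, leu2Δ0 and ura3Δ0. The other strain was labelled BY4741-spp1Δ with the genotype spp1D::KanMX6, in which a drug resistance cassette takes the place of SPP1. Fission yeast cells, 25% by volume, were added to all cultures as a spike-in, and the series text ties the comparability of the strains to it. The series holds 4 libraries, of which the H3K4me3 library of each strain is used here, so each strain is 1 sample. No difference below has a replicate check, a standard deviation or a p-value, and levels that lie next to each other in an order cannot be separated from the spread between cultures, which is unknown.

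H3K4me3 marks the nucleosomes at the 5′ part of transcribed genes. In budding yeast the COMPASS complex, with the methyltransferase Set1, places it while RNA polymerase II transcribes, and Spp1 is the COMPASS subunit with a PHD finger, needed for normal trimethylation. The enzymes of lower glycolysis are among the most abundant proteins of yeast growing on glucose, and their genes are driven by Rap1, Gcr1, Gcr2 and Tye7. Several steps have more than one gene for the same enzyme, and the copies differ in how strongly and when they are used.

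SPP1 itself bears on the strain labels: its level was 1.89 in wild type, against 0.0982 without SPP1. Over all genes the median level was 2.01 before and 0.494 after deletion, the median ratio was 26.3% of wild type, and the standard deviation of log2 ratios was 0.55. That standard deviation was 1.06 over the 212 genes of the left arm of chromosome IV and 0.52 over all others. None of the 10 glycolysis genes lies on that arm.

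All 10 lower glycolysis genes had a wild-type level below the median gene, and all 10 kept a larger share of it in the deletion strain than the median gene did. By construction 50% of all genes lie below the median level and 50% above the median ratio. The members' median level was 1.65 in wild type, against 0.526 after deletion, beside 2.01 and 0.494 for all genes. Their median ratio was 33.6%, or -1.58 on the log2 scale, which lies 0.35 above the all-gene median of -1.93. In the deletion strain 7 of the 10 had a level above the median gene, where again 50% of all genes lie. All 7 therefore passed from below the median in wild type to above it in the deletion strain, as did 10.5% of all genes, a count chosen after the values were seen.

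**Figure D1:**
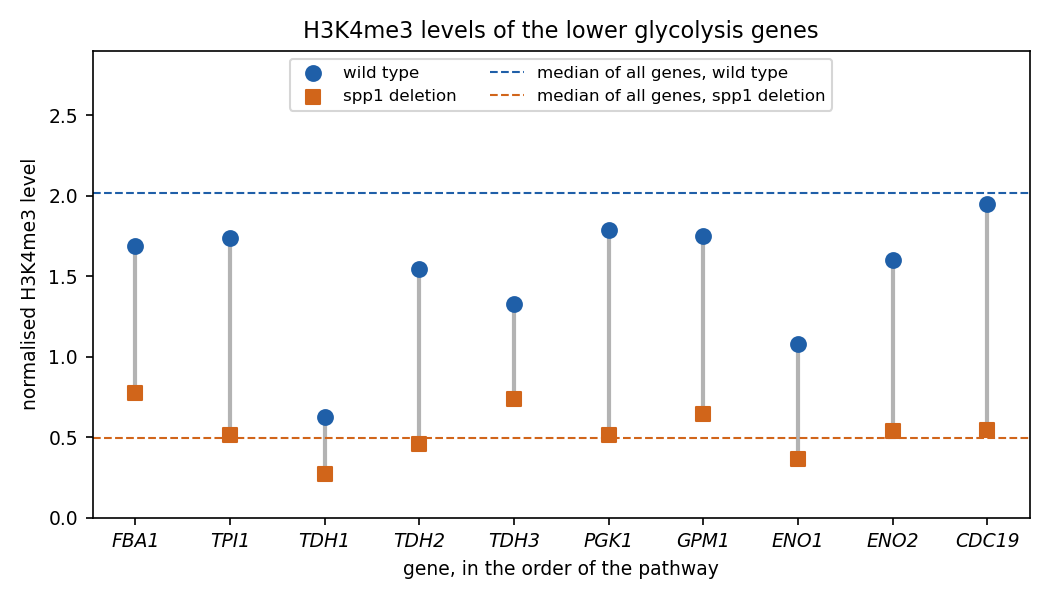
Normalised H3K4me3 level (linear axis, no unit) of each lower glycolysis gene in the wild-type library (circles) and the spp1 deletion library (squares), 1 library each, with dashed lines at the all-gene medians of 2.01 and 0.494. Every circle lies below the upper line, and the squares of TDH1, TDH2 and ENO1 lie below the lower line.

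The loss was large for 9 of the 10 genes. These 9 lay below 50% of wild type, as did 93.8% of all genes, a share close to the members' own. Only TDH3 lay at or above 50%, where 6.17% of all genes lie. With a pseudocount of 0.201 added to both levels, FBA1 (51.5%) and TDH1 (57.4%) joined it, and 7 genes lay below 50%. The all-gene median was then 33.7%, and the share of all genes below 50% was not computed for that setting. None of the 10 lay below 25% of wild type, where 44.6% of all genes lie. This follows from their place above the all-gene median ratio of 26.3%, so it is no separate result. The lowest ratio of the members was 27.9% (CDC19) and the highest 55.5% (TDH3). The members' log2 ratios had a standard deviation of 0.33 among themselves. All 10 ratios relative to wild type rest on the authors' scaling between the strains. After division of both libraries by their totals over genes, the all-gene median log2 ratio rose by 1.76 to -0.17. PGK1 (-0.044) and CDC19 (-0.082) were then just below wild type and the other 8 above it, with their places relative to the other genes unchanged.

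The first enzyme of lower glycolysis is aldolase, which splits fructose bisphosphate into a pair of triose phosphates and has a single gene, FBA1 (chromosome XI, 326408 to 327487, build sacCer3). The level of FBA1 was 1.69 in wild type against 0.773 in the deletion strain, a share of 45.8%. Its wild-type level lay at percentile 24.8 of all genes and its deletion-strain level at percentile 81.2, the highest of the members in that strain. Its ratio lay at percentile 91.0.

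TPI1 (chromosome IV, 555726 to 556472) encodes triose phosphate isomerase, which interconverts the products of aldolase. Its wild-type level was 1.74 and its deletion-strain level 0.516, or 29.7%. The ratio lay at percentile 62.1 of all genes, nearer to the middle than that of FBA1, although the wild-type levels of both genes differed by little.

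Glyceraldehyde-3-phosphate dehydrogenase, the step that makes NADH, has 3 genes. TDH3 (chromosome VII, 882812 to 883810) supplies most of the enzyme in growing cells, TDH2 (chromosome X, 453683 to 454681) is also expressed in them, and TDH1 (chromosome X, 338271 to 339269) is used mainly in stationary phase and stress. In wild type the levels were 1.54 for TDH2, 1.33 for TDH3 and 0.626 for TDH1. In the deletion strain they were 0.735 for TDH3, 0.460 for TDH2 and 0.273 for TDH1. TDH2 and TDH3 thus changed places between the libraries, while TDH1 was the lowest in both.

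TDH3 carried 0.858 times the level of TDH2 in wild type, and 1.60 times its level after deletion. The log2 ratio of TDH3 was 0.90 above that of TDH2, with TDH3 at 55.5% and TDH2 at 29.8% of wild type. That difference was 0.70 with a pseudocount of 0.201 added to both levels and 1.21 with the 1st percentile of each library subtracted. TDH3 kept the largest share of the 10 genes, at percentile 95.8 of all genes, and TDH2 lay at percentile 62.6. TDH1 kept 43.7%, at percentile 89.2, and its log2 ratio was 0.34 below that of TDH3. This gap was 0.096 with a pseudocount of 0.201 added to both levels. The level of TDH3 was 2.12 times that of TDH1 in wild type, and 2.69 times after deletion. By wild-type level TDH1 ranked 235 from the lowest of all genes, and the lowest 10% of genes by wild-type level had a median ratio of 31.8%, above that of the next classes. The 3 genes belong to 1 family and have the same length, 999 bases, and their sequence identity was not computed here. The sources used here do not say how reads shared by related copies were assigned, so their separate levels are uncertain, and the same holds for both enolase genes.

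PGK1 (chromosome III, 137746 to 138996) encodes phosphoglycerate kinase, the first ATP-forming step. Its level went from 1.79 to 0.512, or 28.6%, with the ratio at percentile 58.9. GPM1 (chromosome XI, 163642 to 164385) encodes phosphoglycerate mutase. Its levels were 1.75 and 0.644, 36.8% of wild type, at percentile 80.8. In wild type the levels of PGK1 and GPM1 were close, and in the deletion strain that of GPM1 was the higher.

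Enolase has 2 genes of 1314 bases each. ENO2 (chromosome VIII, 451327 to 452640) is the copy induced by glucose, and ENO1 (chromosome VII, 1000927 to 1002240) is expressed more evenly across carbon sources. The level of ENO2 was 1.60 with SPP1 and 0.536 without it. That of ENO1 was 1.08 with SPP1 and 0.363 without it. ENO2 lay above ENO1 by nearly the same factor in both libraries, 1.49 with SPP1 and 1.48 without it. The copies kept 33.5% (ENO2) and 33.7% (ENO1) of wild type, a log2 difference of -0.0089. With a pseudocount of 0.201 added to both levels the difference was -0.11. The pair thus differed in level and hardly in ratio, whereas TDH2 and TDH3 were closer in wild-type level and further apart in ratio.

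CDC19 (chromosome I, 71786 to 73288) encodes pyruvate kinase, the last enzyme of glycolysis. It had the highest wild-type level of the members, 1.95, which is just below the all-gene median, and 0.543 in the deletion strain. Its share of 27.9% was the lowest of the 10, at percentile 55.9 of all genes. In absolute terms CDC19 lost 1.40 level units and TDH1 0.353, the ends of the range among the members. All 10 lost less than the median gene, which lost 1.43, where 50% of genes lie below by construction. The loss follows from the level and the ratio, so this count is not independent of those given for them above.

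**Figure D2:**
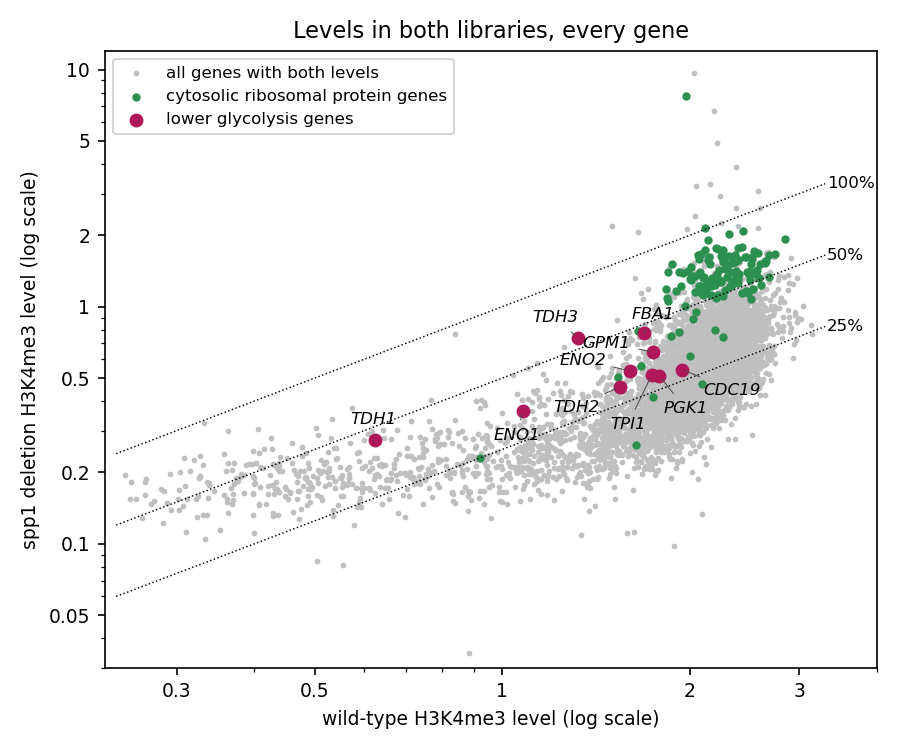
H3K4me3 level in wild type (x axis, log scale) against the spp1 deletion strain (y axis, log scale) for 5038 genes in grey, cytosolic ribosomal protein genes in green and the lower glycolysis genes in red, with dotted lines at 100%, 50% and 25% of wild type. The glycolysis genes lie between the 25% line and just above the 50% line, to the left of most ribosomal protein genes.

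The members were next set against genes of like wild-type level. With all genes sorted into 10 classes of equal size by that level, the members fell into the lowest 5 classes, with 2, 2, 4, 1 and 1 members from the lowest class up. All 10 lay above the median ratio of their own class, as did 50% of all genes. Outside the lowest class this count was given by the members' place above the all-gene median of -1.93 on the log2 scale. The other classes with members had medians from -2.28 to -2.01, all below it. Only TDH1 (-1.20) and ENO1 (-1.57), in the lowest class with a median of -1.65, could have failed. TDH3 was at percentile 99.5 of its class, whose median was 20.6% of wild type, and FBA1 at percentile 95.1 of a class with a median of 21.7%. GPM1 lay at percentile 90.6, TDH2 at 87.6 and ENO2 at 86.8. TPI1 lay at percentile 80.9, TDH1 at 78.5, PGK1 at 75.3, CDC19 at 62.3 and ENO1 at 55.1. The wild-type level enters both the sorting and the ratio, so an error in that level moves both.

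**Figure D3:**
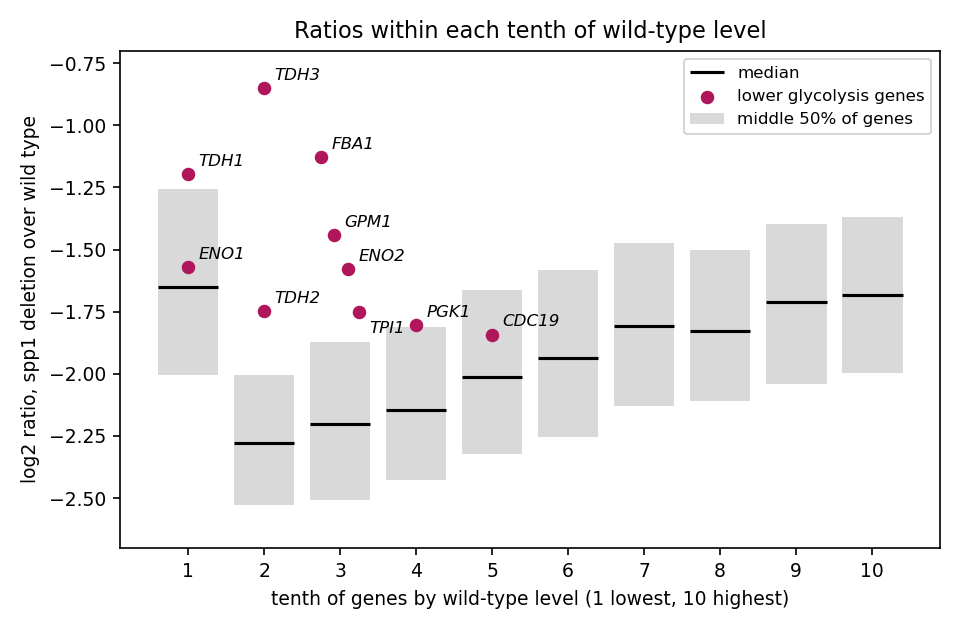
Log2 ratio of the spp1 deletion strain to wild type (y axis) in 10 classes of genes by wild-type level (x axis), with the class median as a line and the middle 50% of its genes as a grey bar. The red points of the lower glycolysis genes all lie above their class median, from ENO1 at percentile 55.1 to TDH3 at percentile 99.5 of the class. Only TDH1 and ENO1, in the lowest class, could have failed, since the other members' class medians lie below the all-gene median. Points in class 3 from the lowest are shifted sideways for legibility.

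Over the 10 genes the Spearman correlation of ratio with wild-type level was -0.64 and with gene length -0.37, and that of the levels in both libraries was 0.44. The wild-type level is the divisor of the ratio, so an error in it favours a negative value. Over all genes the correlation of ratio with wild-type level was not computed. The class median ratio was 31.8% in the lowest class by that level, 20.6% in the second and 31.1% in the highest. Over all 5038 genes the levels of both libraries had a Spearman correlation of 0.76, and over the 4938 genes with an annotated length the ratio had one of -0.11 with length. Genes are not independent replicates, all points share the same pair of libraries, and these values are descriptions. The members were 744 to 1503 bases long, around the all-gene median of 1236. The sources used here do not say whether a level is an average per base, so differences in level between genes of unlike length, other than within the TDH and ENO groups, may include length.

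The nearest measured gene on either side of each member gave the local context, 20 genes in all, with an annotated but unmeasured gene in between at 5 of the 20 sides. Their median ratio was 24.5% of wild type, close to that of all genes, and 9 of the 20 lay above the all-gene median, where 50% of all genes lie. Of the 20 neighbours 17 (85%) had a lower ratio than the glycolysis gene beside them, and 7 of the 10 members lay above both neighbours. Over all genes, a mean of 74.3% had a lower ratio than a given member, so a high count is given by the members' own rank. Wild-type levels were higher than the member's at 12 of the 20 neighbours (60%), against a mean of 77.8% over all genes.

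The widest gap was between TDH2 and MET3, the gene for ATP sulfurylase, which is divergently transcribed with its start side 1557 bases away. The level of MET3 went from 1.38 to 0.138, or 9.99%, against 29.8% for TDH2. ENO1 lay between PUP2, a proteasome subunit gene at 38.7%, and COQ6, a ubiquinone synthesis gene at 12.6%. FBA1, at 45.8%, was flanked by MPE1, an mRNA 3′ end processing gene at 21.9%, and BLI1 at 34.4%. TDH3, at 55.5%, had HIP1, the histidine permease gene, at 35.3% on its 3′ side and PDX1, a pyruvate dehydrogenase complex gene, at 32.9% on its 5′ side. Both of these neighbours carried more H3K4me3 than TDH3 in wild type (2.16 for HIP1 and 2.19 for PDX1), and in the deletion strain TDH3, at 0.735, lay between them (0.763 and 0.718).

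The neighbours with a higher ratio than the member were VMS1 beside TPI1 (30.2% against 29.7%), PUP2 beside ENO1 and POL4 beside PGK1. POL4, a DNA polymerase gene, lay at 39.2% with a wild-type level of 0.434, near the 1st percentile of 0.362. ADP1, on the other side of PGK1, lay at 14.8%. CDC19, at 27.9%, lay above both of its neighbours, with CYC3, the cytochrome c haem lyase gene, at 20.5% and YAL037W at 23.2%.

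**Figure D4:**
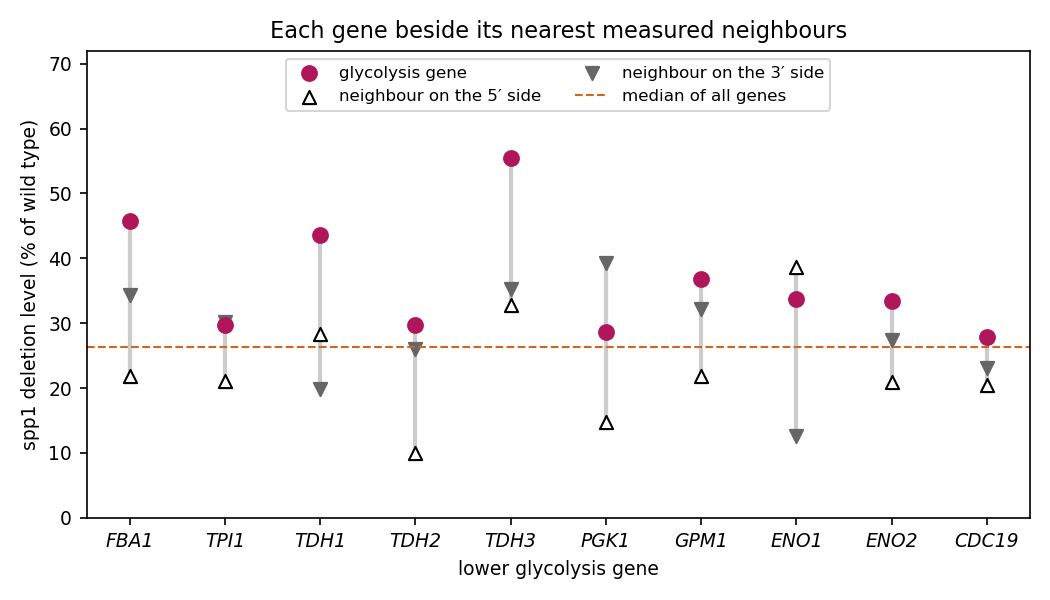
Level in the spp1 deletion strain as a percentage of wild type (y axis) for each lower glycolysis gene (circles) and its nearest measured neighbour on the 5′ side (open triangles) and 3′ side (filled triangles), with a dashed line at the all-gene median of 26.3%. The circle is the uppermost symbol for 7 of the 10 genes, and a neighbour lies above it for TPI1, PGK1 and ENO1.

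Paralogs outside the 10 genes were measured for pyruvate kinase and phosphoglycerate mutase, and all 3 kept smaller shares than the main gene. PYK2, the minor pyruvate kinase gene, had levels of 1.38 and 0.265, 19.2% of wild type against 27.9% for CDC19. GPM3 had 2.05 in wild type, above the 1.75 of GPM1, and 0.484 in the deletion strain, or 23.6% against 36.8% for GPM1. GPM2, which lies on the left arm of chromosome IV where ratios scattered widely, had 0.614 and 0.169, or 27.5%. GPM2 and GPM3 are diverged relatives without a known part in glycolysis. The enolase-related genes ERR1, ERR2 and ERR3 were not analysed here.

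The steps before and after lower glycolysis were more mixed. Of the 6 upper glycolysis genes, which phosphorylate glucose and carry it to fructose bisphosphate, 3 lay above the all-gene median ratio, with a list median of 32.2% of wild type. That median was 24.7% over the 5 genes left by a floor at the lowest 10% of wild-type levels, below the 25.8% of all genes under that floor. Without genes overlapping another annotated gene the list median was 42.1% over 5 genes. The median of all genes was then 26.3% and that of the members 33.6%. PGI1, the phosphoglucose isomerase gene, kept 49.9% (1.98 to 0.989) and PFK2, a phosphofructokinase subunit gene, 42.1%. PFK1, which encodes the other subunit, kept 24.7%, HXK2, the main hexokinase gene on glucose, 23.5%, and GLK1, the glucokinase gene, 21.0%. HXK1 kept 55.3%, but its wild-type level of 0.388 lay near the 1st percentile of all genes.

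Of the 8 fermentation genes, 5 lay above the all-gene median ratio, with a list median of 31.7%. The median turned to below that of all genes with a floor at the lowest 10% of wild-type levels (23.7% over 5 genes, against 25.8% for all genes) and with the 1st percentile of each library subtracted (20.2% over 7 genes, against 22.3%). ADH1, the main alcohol dehydrogenase gene, went from 1.45 to 0.504, or 34.7%, close to the members' median. PDC1, the main pyruvate decarboxylase gene and also known for high expression, had 1.68 and 0.381, or 22.7%, below any of the 10. ADH3 kept 35.3%, and ADH2 kept 39.2% of a wild-type level of only 0.468. ADH4 kept 23.7% and ADH5 14.6%. PDC5, at 28.9%, had a wild-type level of 0.593, and PDC6, at 67.1%, one of only 0.293.

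The glycerol branch leaves the pathway at the triose phosphates. GPD1, the main glycerol phosphate dehydrogenase gene, on the left arm of chromosome IV, kept 58.3% (1.89 to 1.10), while GPD2 kept 23.3% and GPP2 19.6%. FBP1, the fructose bisphosphatase gene of gluconeogenesis, which runs the pathway backwards, had 0.555 and 0.181, or 32.6%. With that subtraction of the 1st percentile it lay below the all-gene median, at 16.9% against 22.3%. PCK1, the other gene listed for gluconeogenesis, was not analysed here. Among the regulators of glycolytic genes, GCR2 kept 47.0%, RAP1 34.6%, GCR1 26.3% and TYE7 22.6%. Of these 4, 3 lay above the all-gene median ratio, GCR1 by a margin of under 0.01 on the log2 scale, and wild-type levels ran from 1.89 for TYE7 to 2.27 for GCR2.

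Since lower glycolysis genes are very strongly transcribed, they were compared with 20 other genes known for very high expression, chiefly of translation, chaperones and the cell surface. Of these, 15 lay above the all-gene median ratio and 14 had a deletion-strain level above the median gene, with a median ratio of 38.0%. Their median wild-type level was 1.87, above the 1.65 of lower glycolysis, and 12 of the 20 lay below the all-gene median in wild type. PMA1, the plasma membrane proton pump gene, had 1.12 and 0.440, or 39.3%, and CCW12, a cell wall mannoprotein gene, 1.10 and 0.550, or 49.95%. EFT1, one of the genes for elongation factor 2, had 2.29 and 1.22, or 53.1%. The chaperone gene SSA1 kept 18.5%, TEF4 19.7% and HSC82 23.9%, so a ratio above the median was not shared by all of them. TEF4 had a wild-type level of 0.831 and TIF1 one of 1.35.

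The 131 measured genes of cytosolic ribosomal proteins, also very highly expressed, had a median wild-type level of 2.24 and a median ratio of 60.0%, above that of every lower glycolysis gene. Of these 131, 127 lay above the all-gene median ratio and 25 below the all-gene median in wild type, where all 10 glycolysis genes lay. Their lowest member was RPL41B at 15.9% and their highest RPL35A at 390.8%, both on the left arm of chromosome IV.

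**Figure D5:**
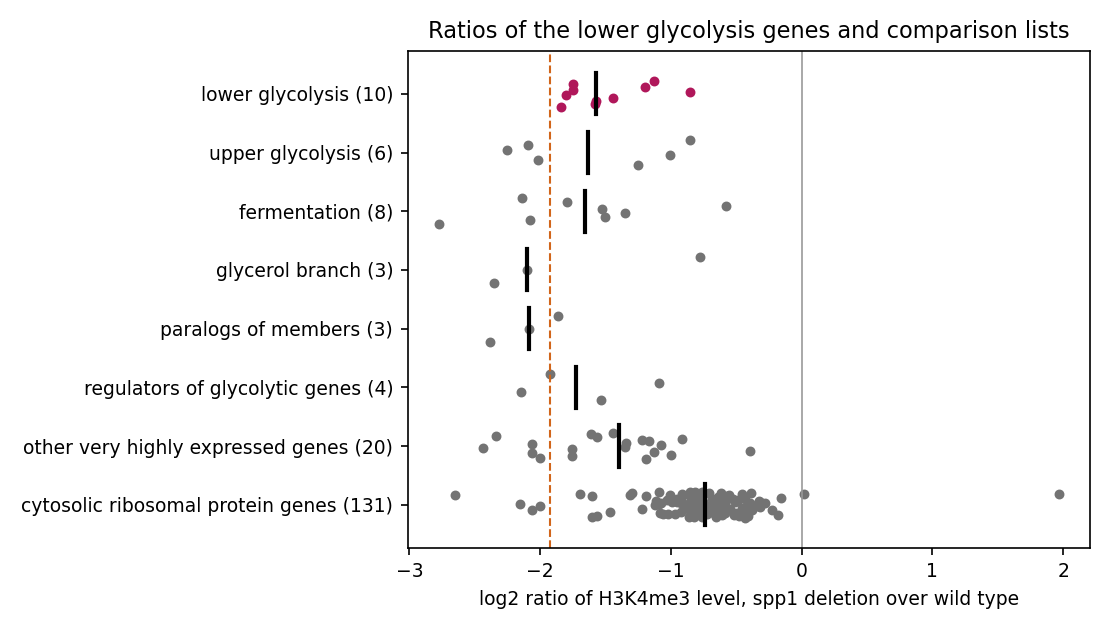
Log2 ratio of H3K4me3 level, spp1 deletion over wild type (x axis), for each gene of lower glycolysis (red) and of 7 comparison lists (grey), with the number of measured genes in brackets, the list median as a black bar and the all-gene median of -1.93 as a dashed line; points are spread vertically for legibility. All 10 lower glycolysis points lie right of the dashed line, while upper glycolysis and fermentation lie on both sides of it.

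Copies of other highly expressed genes were compared in the levels as deposited, and of 5 such pairs 1 had a gap as wide as that between TDH3 and TDH2. TIF2 lay 0.99 above TIF1 in log2 ratio (47.4% and 23.9% of wild type), both encoding the initiation factor eIF4A. SSB1, on the left arm of chromosome IV, lay 0.73 above SSB2, and SSA2 lay 0.68 above SSA1, all of them Hsp70 chaperone genes. The copies of elongation factor 2 differed by 0.31, with EFT1 above EFT2, and for the elongation factor 1 alpha genes the difference TEF2 minus TEF1 was -0.17. The enolase pair, at -0.0089, was closer than any of these pairs in the levels as deposited. With a pseudocount of 0.201 added to both levels its difference was -0.11, a setting not run for the other pairs. How reads shared by copies were assigned is unknown for these pairs too, so their separate levels are uncertain.

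The genes whose pair of levels lay closest to the members' median levels were PEX34 (1.68 with SPP1 and 0.531 without it), MLO50, VBA4, ZWF1 and CSM1. Their distances, as Euclidean distances in the log2 levels of 2 libraries, were 0.032 for PEX34, 0.036 for MLO50, 0.038 for VBA4, 0.058 for ZWF1 and 0.059 for CSM1. ZWF1 encodes glucose-6-phosphate dehydrogenase, which opens the pentose phosphate pathway, and kept 30.2% of wild type. With 2 libraries such likeness is that of a pair of values.

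The lead of the 10 genes over the median gene, 0.35 on the log2 scale, was 0.17 when TDH1, TDH2, TDH3, ENO1 and ENO2 were left out as related copies of each other, a choice made after the values were seen. All 5 genes left, FBA1, TPI1, PGK1, GPM1 and CDC19, lay above the all-gene median ratio. That count and a positive lead were given in advance, since their ratios and the all-gene median were the same as before.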

How the data were processed

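The authors deposited a normalised H3K4me3 signal per gene for the wild-type and the spp1 deletion library, per the file headers. The tools named are Bowtie2, SAMtools and bedtools, and the builds sacCer3 (budding yeast) and ASM294v2 (fission yeast), per the submitters' processing notes. The sources used here do not give their versions, the part of each gene measured, any use of the input or the treatment of reads shared by gene copies. Read depth per library is unknown, so no counting interval is given.

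Of 5219 names, 5116 matched the RefSeq annotation (assembly R64), which supplied symbols and 1-based coordinates, and 5038 had both levels. Log2 ratios were taken from the levels without a pseudocount or a filter on low values, in Python 3.11.15 with pandas 2.3.3. Medians, percentiles and counts are descriptions: with 1 library per strain no test was made. The summary code was tested on simulated data. All genes of the lists were eligible to be named, as were the nearest measured neighbours and the 5 genes closest in both levels. RPP1, an RNase P gene, was left out of the ribosomal list despite its symbol. Members and lists were chosen with earlier results of these data known. Alternatives were a pseudocount, scaling to library totals, background subtraction, a floor, leaving out chromosome IV left or overlapping genes, and counting genes with identical levels once.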

Additional observations from a re-analysis of the deposited data

How the results depend on the processing

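Each strain has 1 library of unknown depth, so no setting replaces a replicate. No paired analysis was possible because each group has 1 sample and no test was made. List medians counted as unmoved within their 95% order-statistic interval over genes, and single values or lists under 6 genes within 1.5-fold. The lead of the 10 genes over all genes was positive under all 8 alternatives, from 0.17 to 0.46 (log2). Scaling to library totals cannot change this lead. Leaving out chromosome IV left or overlapping genes, and counting identical levels once, removed no member. Those settings could move only the all-gene median, and the lead stayed at 0.35 to 0.36, so they are no check on the members. After division of both libraries by their totals, the 10 genes had a median log2 ratio of 0.18 and none lay below 50% (0 genes). The all-gene median was then 89.2%. Shares of all genes below 50% or 25% were not computed for the alternatives. FBA1 was then at 0.63, TPI1 at 0.0072, TDH1 at 0.56, TDH2 at 0.012, TDH3 at 0.91, GPM1 at 0.32, ENO1 at 0.19 and ENO2 at 0.18. Under the same scaling the list medians were 0.13 for upper glycolysis, 0.10 for fermentation, 0.14 for gluconeogenesis (FBP1 alone), 0.032 for the regulators, 0.36 for the other very highly expressed genes, 1.02 for ribosomal protein genes, -0.32 for the paralogs and -0.34 for the glycerol branch. These changes follow from the factor common to each library. With the 1st percentile of each library subtracted, the all-gene median was -2.17, or 22.3% of wild type. Of the 10 genes 1, CDC19 at 24.9%, then lay below 25% of wild type, and ENO2 lay 0.062 above ENO1. The medians with this subtraction were -3.13 for the paralogs and -2.57 for gluconeogenesis. The subtraction took 0.362 from wild-type levels and 0.149 from deletion-strain levels, where FBP1 had 0.181 and PYK2 0.265. No cause beyond that subtraction was tested. The pseudocount moved gluconeogenesis to -0.98. Without the TDH and ENO copies, a setting chosen after seeing the data, 5 of 5 genes lay above the all-gene median ratio and 5 below 50% of wild type, since fewer genes were counted. That setting left the ratios and the all-gene median as they were, so neither the 5 of 5 nor a positive lead could fail. A floor of 1.10 in wild type, its 10th percentile, left out TDH1 and ENO1, and 8 of the 8 genes left lay above the all-gene median. The floor changed no ratio and the all-gene median fell to -1.95, so neither this count nor a positive lead could fail.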
